A study of Mus musculus with 29 samples.

Results

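Small leucine-rich proteoglycans (SLRPs) are secreted matrix proteins built on a short core of leucine-rich repeats, most of which carry glycosaminoglycan chains. The genes described here are the 7 whose symbols were given for this family, decorin (Dcn), biglycan (Bgn), lumican (Lum), fibromodulin (Fmod), osteoglycin (Ogn), prolargin (Prelp) and asporin (Aspn). They were taken by symbol from an expression table of 29,955 genes in mouse hearts, and all 7 were found in it. Genes were tested when they averaged 0.5 FPKM or more over all libraries used, which all 7 did, as did 12,759 genes in all. FPKM divide a gene's fragments by the length of its transcript and by the size of the library, so levels of different genes can be set side by side. Fmod passed this filter only through groups in which it was high, since its control mean was 0.131 FPKM.

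The hearts came from male C57BL6 mice that were 3 months of age when the study began. Heart failure (HF) was induced through the drinking water, which held 1% NaCl and, at 0.3 mg/ml, the nitric oxide synthase inhibitor L-NAME, and from the end of the first week with angiotensin II from an osmotic pump at 0.7 mg/kg per day. HF week 3 (2 libraries) and HF week 5 (3 libraries) were taken during and at the end of these 5 weeks. The agents then stopped, the pump running for 28 days, and Recovery weeks 7, 9, 11, 13 and 19 (2, 2, 3, 2 and 5 libraries) were taken 2, 4, 6, 8 and 14 weeks later. Control week 19 (5 libraries) came from untreated mice of the age of Recovery week 19, which were 14 weeks further on than the mice of HF week 5. In comparisons of HF with control the disease and age can therefore not be told apart. Recovery groups were likewise older than HF week 5, so recovery and age cannot be told apart in those comparisons. Recovery weeks 7 to 13 were also younger than Control week 19. Controls of week 5 were not used, because 5 columns carry their name where 4 samples have that label. The tissue is labelled as whole ventricle, and the methods of the study name frozen apical portions. Each library is numbered within its group without a link to a labelled mouse, so p-values measure the spread between these libraries.

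SLRPs bind fibrillar collagen and set the thickness and spacing of its fibrils, and several also bind growth factors of the transforming growth factor β family or cell surface receptors. Decorin and biglycan are closely related and carry chondroitin or dermatan sulfate chains, and asporin is the third member of their class. Lumican, fibromodulin and prolargin form the class that can carry keratan sulfate, and osteoglycin belongs to a further class. In the heart these genes are expressed mainly by fibroblasts and other stromal cells, and they are known for their place in the scar and in interstitial fibrosis. In tissue as here, more stromal cells and more RNA per cell cannot be told apart.

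Most of these genes stand in clusters. In the RefSeq annotation of the mouse genome GRCm38.p6, Optc, Prelp and Fmod follow each other on chromosome 1, Dcn, Lum, Kera and Epyc on chromosome 10, and Ecm2, Aspn, Omd and Ogn on chromosome 13, while Bgn is on chromosome X. The files were made on an earlier build, from which no positions were taken. RefSeq promoters were found for 5 of the 7 genes, the exceptions being Dcn and Lum. Shown here are the 250 bases upstream of the start of Fmod and Prelp, neighbours whose levels behaved differently, and of Bgn, whose levels were most like those of Fmod among the 7 genes. They lie at chr1:134037004-134037253 (plus strand), chr1:133921402-133921651 (minus strand) and chrX:73483351-73483600 (plus strand). Capitals mark matches, on either strand, to CAGAC (SMAD box) and CCAAT (NF-Y box).
Fmod: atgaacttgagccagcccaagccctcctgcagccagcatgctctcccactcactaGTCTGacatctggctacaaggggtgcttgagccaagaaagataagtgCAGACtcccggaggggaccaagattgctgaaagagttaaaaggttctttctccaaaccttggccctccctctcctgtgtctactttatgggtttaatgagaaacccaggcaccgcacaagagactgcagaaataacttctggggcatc
Prelp: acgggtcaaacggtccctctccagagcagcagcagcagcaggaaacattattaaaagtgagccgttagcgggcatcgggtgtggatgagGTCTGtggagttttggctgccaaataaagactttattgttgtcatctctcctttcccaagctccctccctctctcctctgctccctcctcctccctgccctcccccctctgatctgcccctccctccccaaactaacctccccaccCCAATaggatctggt
Bgn: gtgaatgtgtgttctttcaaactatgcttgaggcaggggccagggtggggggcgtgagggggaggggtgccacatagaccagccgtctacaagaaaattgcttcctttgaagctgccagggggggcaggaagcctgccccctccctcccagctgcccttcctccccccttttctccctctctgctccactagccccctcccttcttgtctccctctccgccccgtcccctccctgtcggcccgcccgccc

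The Fmod stretch held CAGAC at 2 places, 195 and 148 bases upstream of the start, and the Prelp stretch held it once, at 161 bases, with CCAAT at 15 bases. The Bgn stretch, with 64.4% G and C against 51.2% in Fmod and 55.6% in Prelp, held none of the 5 motifs searched. All 5 were searched on both strands, and no match shown overlaps another. The TATA box was taken as TATAAA, which 12.4% of 32,851 promoters of this length hold, and the AP-1 site as TGANTCA, held by 6.7%. The SMAD box CAGAC was in 42.2%, the TEAD site, taken as CATTCC, in 12.6%, and the NF-Y box CCAAT in 33.8%, so that CAGAC is common in any such stretch.

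Decorin and biglycan made up most of the SLRP transcripts in every library. In Control week 19 the order by mean FPKM was Dcn (188 ± 32.8, SD, n = 5), Bgn (89.3 ± 7.76), Ogn (22.4 ± 5.79), Lum (22.3 ± 6.94), Prelp (15.1 ± 1.57), Aspn (6.46 ± 2.96) and Fmod (0.131 ± 0.05). Ogn and Lum overlapped in these libraries. By rank among all genes of a library, Dcn stood between place 254 and place 560 and Bgn between 262 and 957. Fmod moved most, between place 2159 and place 15,639.

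**Figure D1:**
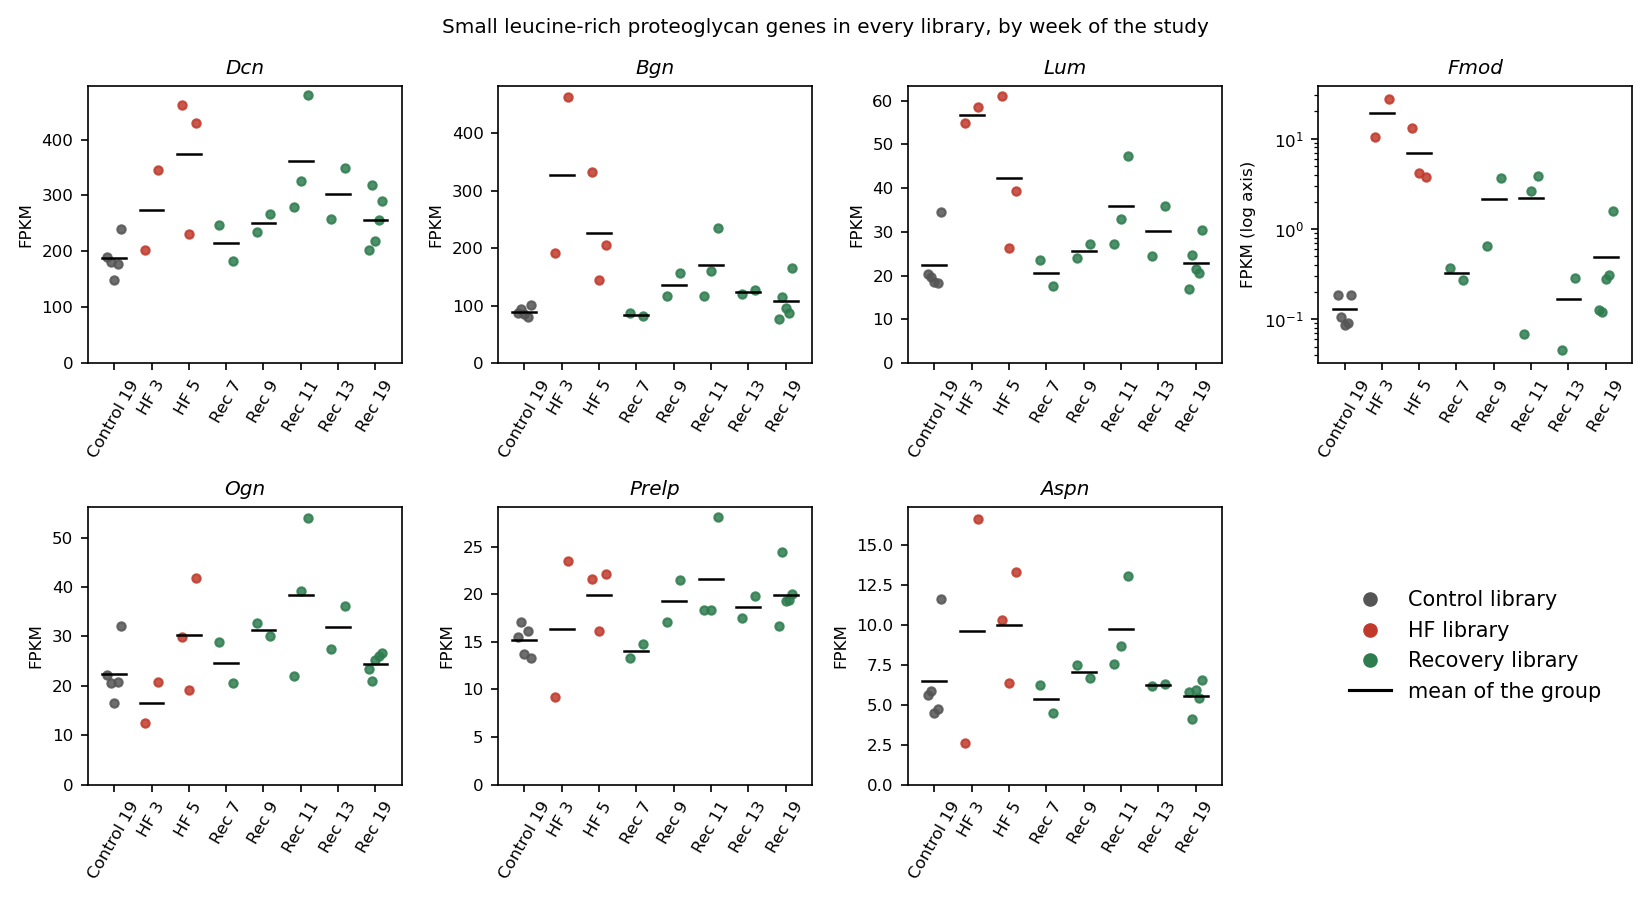
FPKM of the 7 SLRP genes, 1 point per library and a line at the mean of each group, by week of the study; the axis of Fmod is logarithmic and the others are linear from 0. Fmod lay between 3.75 and 27.7 in the HF libraries and between 0.0876 and 0.185 in the control libraries, whereas Ogn, Prelp and Aspn overlapped between HF and control.

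Before the comparisons, 2 HF libraries have to be named. HF week 3 library 1 had 12,816 genes above 0 against 16,339 to 18,091 in the others, and its low values showed none of the steps of 1 fragment that gave the relative depth of the other 23 libraries (0.729 to 1.40; absolute depth is unknown). HF week 5 library 1 stood apart by markers of the atrium. The FPKM summed over 6 atrial markers were 81,868 in it and 2522 and 2231 in the other HF week 5 libraries, against 90 to 350.1 in Control week 19. The sums of 10 cardiomyocyte markers fell into separate ranges, 22,219 to 45,923 FPKM in HF week 5, Recovery week 19 and the controls, 138,612 to 364,054 from Recovery week 7 to Recovery week 13, while the HF week 3 libraries had 67,917 and 326,494. The share of all FPKM held by the top 10 genes split likewise, at 14.6% to 18.8%, 27.9% to 37.4%, and 19.8% and 37.5%. Comparisons of Recovery weeks 7 to 13 with HF week 5 or with control, and those with HF week 3, therefore cross this divide, whose part in them was not tested. Myh6, the main myosin heavy chain of the adult mouse ventricle, is 1 of the 10 cardiomyocyte markers. It is listed at 0 in every library of HF week 5, Recovery week 19 and the controls, the groups with the low sums. In HF week 3 and Recovery weeks 7 to 13 no cardiomyocyte marker is at 0. Over the 10 markers the median log2 fold change of Recovery week 7 against HF week 5 was 0.18. Of them 1 was called higher by limma, where 8.05% of all genes tested were.

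At the end of induction, 4 of the 7 genes were called higher in HF week 5 relative to Control week 19 and none lower, where 11.6% of all genes tested were called higher and 12.4% lower. A call means an adjusted p under 0.05, from limma on log2(FPKM + 0.5) with Benjamini-Hochberg adjustment over all 12,759 genes. Fold changes are on that log2 scale, on which the pseudocount of 0.5 shrinks differences of low genes. The 4 genes were Fmod, Bgn, Dcn and Lum. The median log2 fold change of the 7 genes was 0.86, against 0.043 over all genes tested.

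Fibromodulin, which binds type I collagen and regulates its cross-linking and fibril assembly, differed most. Its FPKM were 0.185, 0.107, 0.0876, 0.0901 and 0.185 in the control libraries. They were 12.9, 4.16 and 3.75 in HF week 5, all above the control libraries. The ratio of mean FPKM was 53.1, and the log2 fold change was 3.35 (SE 0.57, 95% interval 2.16 to 4.55, adjusted p = 0.000519), the 25th largest in size of all genes tested. The low control values stand for few fragments. In units of 0.0206 FPKM at the depth of the reference library, they came to 9, 5, 4, 5 and 9 fragments, and all 14 libraries under 0.5 FPKM came within 0.037 of a whole number. The unit was chosen from these same 14 values, as the largest that brought them within 0.1 of whole numbers. Their closeness to whole numbers is therefore no test of it. The HF week 5 libraries came to 756, 227 and 192 fragments by the same unit.

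Biglycan, which is also released from the matrix and then recognised by Toll-like receptors, was at 87.5, 93.4, 84.7, 80.5 and 100.4 FPKM in the control libraries. In HF week 5 it was at 332, 144 and 205 FPKM, again without overlap. Its log2 fold change was 1.26 (SE 0.29, adjusted p = 0.00435). In this comparison 14.8% of all genes tested had every HF library above every control library, as Fmod and Bgn did.

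Decorin, which limits collagen fibril diameter and binds transforming growth factor β, was at 190, 182, 149, 178 and 239 FPKM in the control libraries and at 462, 231 and 430 in HF week 5. The log2 fold change was 0.95 (SE 0.24, adjusted p = 0.00836), with HF library 2 inside the range of the controls. Lumican, a regulator of fibril assembly and spacing, was at 20.5, 19.6, 18.5, 18.4 and 34.6 FPKM in the control libraries. It was at 61.2, 26.2 and 39.3 in HF week 5, the log2 fold change being 0.86 (SE 0.25, adjusted p = 0.019). Here control library 5 lay above HF library 2.

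The other 3 genes were not called. Osteoglycin was at 16.5 to 32.1 FPKM in control and 19.2 to 41.9 in HF week 5 (log2 fold change 0.39, 95% interval -0.16 to 0.94). Prolargin, which anchors basement membranes to connective tissue, was at 13.3 to 17.0 and 16.2 to 22.1 FPKM (0.38, interval -0.067 to 0.83). Asporin, an inhibitor of transforming growth factor β signalling, was at 4.48 to 11.6 and 6.39 to 13.3 FPKM (0.62, interval -0.18 to 1.42). The groups overlapped for each of these genes, and the intervals for Ogn and Aspn reach beyond the difference measured for Lum.

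HF week 5 library 1 had the highest FPKM of the 3 HF week 5 libraries for Fmod, Bgn, Dcn and Lum. Without it the share of all genes tested called higher fell from 11.6% to 4.21%. Of the 7 genes Fmod alone was called without it (log2 fold change 2.82), and Bgn, Dcn and Lum had 0.94 (adjusted p = 0.0537), 0.76 (0.0761) and 0.56 (0.184). The direction of all 7 genes was the same without it. Lum was also not called with every gene kept in the test (adjusted p = 0.0568) or with only these 2 groups in the fit (0.0581).

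**Figure D2:**
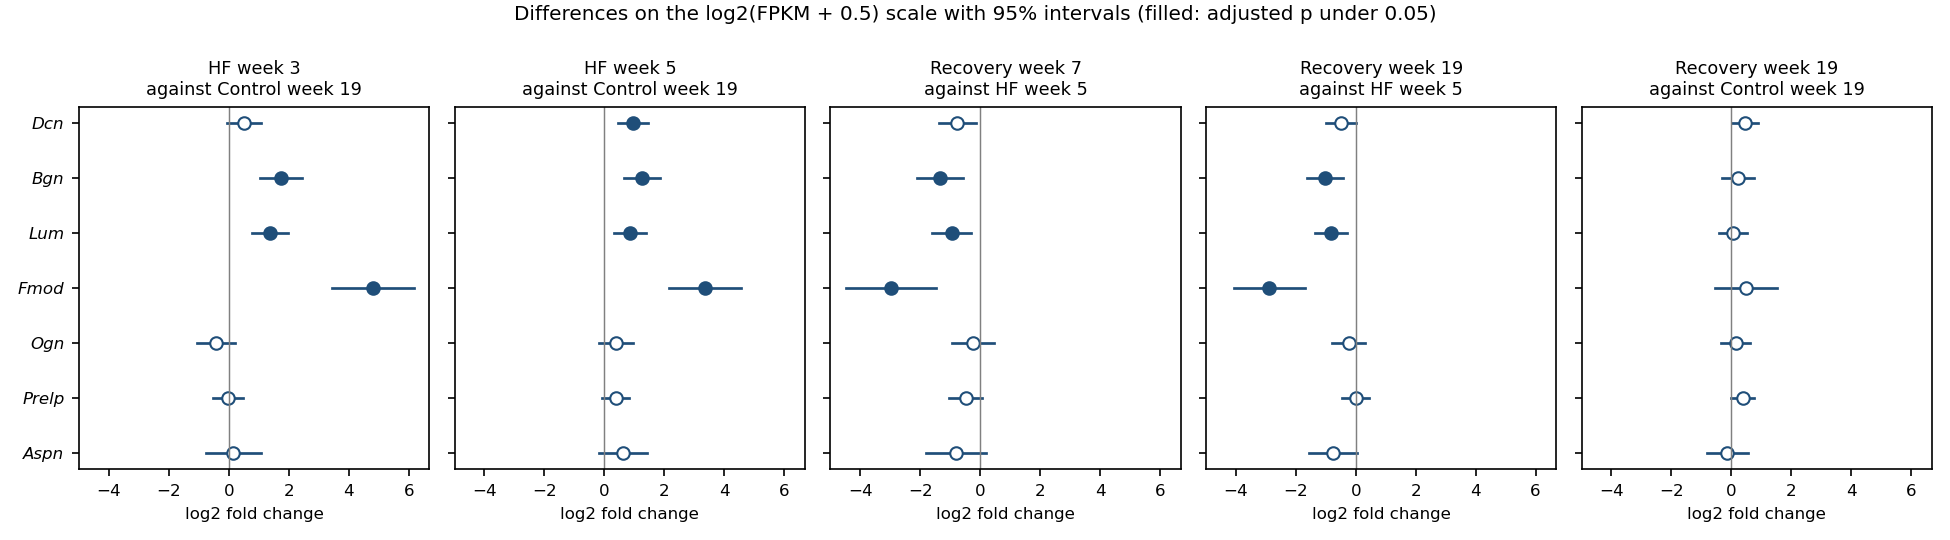
Log2 fold changes of the 7 SLRP genes in 5 comparisons, on the log2(FPKM + 0.5) scale, with 95% intervals; filled points have an adjusted p under 0.05. Fmod, Bgn, Lum, Dcn and Aspn were above 0 in both HF groups against control and below 0 in Recovery weeks 7 and 19 against HF week 5. Of the points of Dcn and Aspn only that of Dcn in HF week 5 against control is filled. No point is filled between Recovery week 19 and Control week 19.

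After 3 weeks of induction, 3 of the 7 genes were higher than in Control week 19 and none was lower, where 23.1% of all genes tested were called higher and 27.6% lower. These were Fmod, at 10.3 and 27.7 FPKM (log2 fold change 4.79, SE 0.65, adjusted p = 1.26e-05), Bgn, at 192 and 462 FPKM (1.74, SE 0.33, adjusted p = 0.000318), and Lum, at 54.8 and 58.6 FPKM (1.37, SE 0.29, adjusted p = 0.000813). For these 3 genes both libraries lay above all control libraries, as they did for 21.4% of all genes tested. The other genes were not called. Dcn was at 202 and 345 FPKM (log2 fold change 0.51, adjusted p = 0.129), Prelp at 9.20 and 23.5, Aspn at 2.59 and 16.6, and Ogn at 12.4 and 20.7. For all 7 genes library 1, the library with fewer genes above 0, had the lower value, and the ratio of the higher to the lower ran from 1.07 for Lum to 6.42 for Aspn.

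Which of the remaining genes were called at week 3 therefore rested on the library used. With library 2 alone, Prelp and Aspn joined Fmod, Bgn and Lum as higher (5 of 7; log2 fold changes of 0.63 and 1.38). With library 1 alone, Prelp and Aspn were lower (-0.68 and -1.09) beside the same 3 genes higher. A lone library is assumed there to vary like the other groups. HF week 5 and HF week 3 did not differ by a call for any of the 7 genes, where 21.4% of all genes tested were called, and 1 gene, Ogn, was higher at week 5 at an unadjusted p under 0.05 from limma, as were 23.7% of all genes tested (log2 fold change 0.83, SE 0.33, adjusted p = 0.0752). Without HF week 3 library 2, Ogn, Prelp and Aspn were called higher at week 5 (1.19, 1.06 and 1.70), and without HF week 5 library 2 Ogn was (1.12, adjusted p = 0.0489).

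Summed over the 7 genes, FPKM came to 287 to 432 in the control libraries. They were 484 and 955 at HF week 3, and 929.5, 447 and 755 at HF week 5, all above the control libraries. By Recovery week 19 the range was 342 to 539.7, and the sums were not tested. The ratio of Bgn to Dcn, which no scaling between libraries can move, was 0.948 and 1.34 in HF week 3 and 0.718, 0.623 and 0.475 in HF week 5, library 3 of which lay within the control range. It was 0.419 to 0.568 in Control week 19 and 0.342 to 0.567 in Recovery week 19. Bgn exceeded Dcn in HF week 3 library 2 alone, of the 24 libraries. The test of the log2 ratio gave p = 0.107 for HF week 5 against control (two-sided exact permutation test, adjusted p = 0.161 over 3 comparisons), where the smallest p possible is 0.0357. For Recovery week 19 the same exact test gave p = 0.0714 against HF week 5 and p = 0.183 against control (adjusted p = 0.161 and 0.183). The share of Fmod in the pool was 2.13% and 2.90% in HF week 3, 1.39%, 0.93% and 0.497% in HF week 5, and 0.028% to 0.054% in control.

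**Figure D3:**
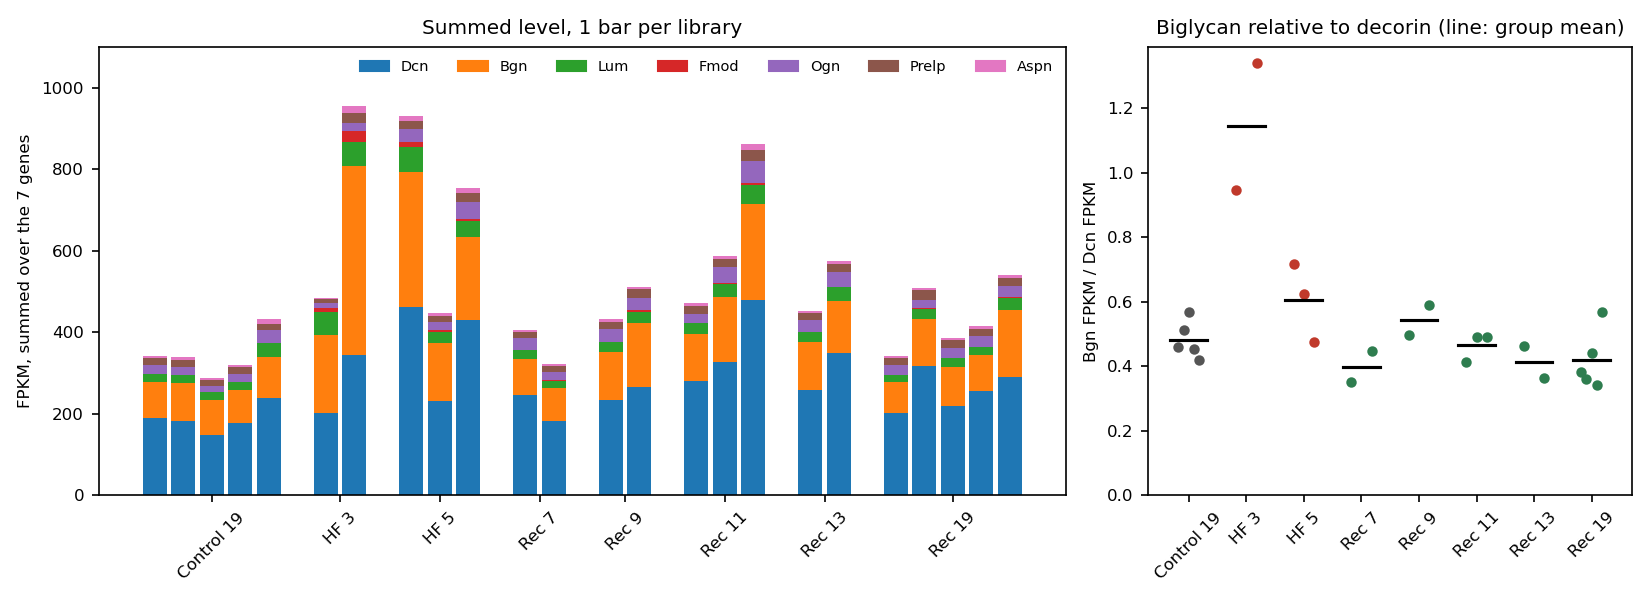
Left, FPKM summed over the 7 SLRP genes, 1 stacked bar per library; right, the ratio of Bgn to Dcn FPKM, 1 point per library with a line at the group mean. Dcn and Bgn fill most of each bar, and the ratio was 0.948 and 1.34 in HF week 3 against 0.419 to 0.568 in Control week 19.

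At Recovery week 7, 2 weeks after the agents stopped, 3 of the 7 genes were lower than in HF week 5 and none was higher, where 6.75% of all genes tested were called lower and 8.05% higher. Fmod was at 0.374 and 0.271 FPKM (log2 fold change -2.97, SE 0.71, adjusted p = 0.0102), and Bgn was at 86.6 and 81.7 FPKM (-1.34, SE 0.36, adjusted p = 0.0189). Lum, at 23.5 and 17.6 FPKM, was at the threshold (-0.95, SE 0.32, adjusted p = 0.049994). For these genes, and for Prelp and Aspn, both recovery libraries lay below all HF week 5 libraries, as they did for 27.0% of all genes tested. Dcn was at 247 and 182 FPKM (log2 fold change -0.75, adjusted p = 0.0975) and overlapped HF week 5. None was left when the fit held only the 2 groups compared, which leaves the log2 fold changes as they are. None was left without Recovery week 7 library 1 (Fmod -3.06, Bgn -1.38, Lum -1.15), without library 2 (-2.88, -1.30 and -0.75) or without HF week 5 library 1 (-2.44, -1.02 and -0.64). Without HF week 5 library 2, Dcn was called as well (-1.07, adjusted p = 0.0173).

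At Recovery week 19, 3 of the 7 genes were lower than in HF week 5 and none was higher, where 12.0% of all genes tested were called lower and 12.3% higher. Fmod was at 0.127, 0.122, 0.278, 0.31 and 1.58 FPKM, below all HF week 5 libraries as were 12.7% of all genes tested (log2 fold change -2.88, SE 0.57, adjusted p = 0.00161). Bgn was at 77.2, 115, 96.1, 87.5 and 164 FPKM (-1.03, SE 0.29, adjusted p = 0.0144), and its highest library lay within the HF range. Lum was at 17.0, 24.8, 21.4, 20.5 and 30.5 FPKM (-0.82, SE 0.25, adjusted p = 0.0254), also with overlap. Prelp had the same level in both groups, 19.94 ± 2.79 FPKM (SD, n = 5) in recovery and 19.96 ± 3.29 (n = 3) in HF, with an interval of -0.44 to 0.45 for the log2 difference. Without HF week 5 library 1, Fmod alone was called. Lum was not called without HF week 5 library 3 (adjusted p = 0.0585) or without Recovery week 19 library 1 (0.0555), and Dcn was called without HF week 5 library 2 (-0.82, adjusted p = 0.0212). Lum was also not called with every gene kept in the test (adjusted p = 0.0724) or with only the compared groups in the fit (0.0638). Aspn was called in that smaller fit (0.0483) and with both HF week 3 libraries out of the fit (0.0325), each time at a log2 fold change of -0.75.

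Against controls of the same age, none of the 7 genes was called at Recovery week 19 by limma, where 0.0235% of all genes tested were called (3 genes). At an unadjusted p under 0.05, 1 of the 7 was higher, where 2.01% of all genes tested were. This was Dcn, at 202, 318, 218, 256 and 290 FPKM against 149 to 239 in control (log2 fold change 0.45, 95% interval 0.011 to 0.88, adjusted p = 1). Prelp was next, at 16.7 to 24.4 against 13.3 to 17.0 FPKM (0.38, interval -0.0054 to 0.77). Both groups overlapped for all 7 genes, and the interval of Fmod, -0.56 to 1.51, is wide. This comparison shares its libraries with those above, so the 3 sets of differences are not independent of each other.

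Between these times the levels did not fall evenly. Recovery week 11 had the highest mean FPKM of any recovery group for each of the 7 genes, although for Fmod the mean at week 9 was close (2.15 against 2.18) and the log2 fold change against control was larger at week 9 (1.79 against 1.65). Week 11 also had the highest mean of all 8 groups for Ogn (38.4 ± 16 FPKM, SD, n = 3) and Prelp (21.6 ± 5.68). Dcn was at 279.96, 326 and 479 FPKM there, above all control libraries, and its log2 fold change against Control week 19 was 0.92 (SE 0.24, adjusted p = 0.157). Bgn was at 116, 159.99 and 235 FPKM, also above all controls (0.87, adjusted p = 0.296), and Prelp at 18.3, 18.3 and 28.2, where 5.75% of all genes tested lay above all controls. No gene was called at week 11 by limma, where 0.149% of all genes tested were called. At an unadjusted p under 0.05, 6 of the 7 were higher, the exception being Aspn, where 4.89% of all genes tested were. Recovery week 11 library 3 had the highest value of its group for all 7 genes, and for each gene the libraries of week 11 overlapped with those of the group next to it by mean. Of 11 marker lists, 6 also had sums above all controls in every library of week 11. These were the markers of fibroblasts (1521 to 2005 FPKM against 829.5 to 1067 in control), activated fibroblasts (111 to 122 against 60.4 to 77.5), macrophages (337 to 482 against 178 to 324), the atrium (362 to 1436 against 90 to 350.1), valve, tendon and cartilage (37.1 to 48.6 against 19.4 to 26.0) and cardiomyocytes, given above. Of the cardiomyocyte list, Myh6 is listed at 0 in every control library but in none of week 11, so those sums do not rest on the same genes. The part of these lists in the result was not tested.

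Fmod split the libraries of single weeks. It was at 0.0679, 2.60 and 3.87 FPKM at Recovery week 11, at 0.64 and 3.67 at Recovery week 9, and at 0.0452 and 0.287 at Recovery week 13. The fragments behind these values were 3, 110 and 156, then 33 and 205, then 2 and 13. At week 11 library 1 thus lay below the lowest control library (0.0876 FPKM) and library 3 within the range of HF week 5 (3.75 to 12.9), and at week 9 library 2 lay just under that range. Without Recovery week 11 library 1, Fmod was called higher than in control (log2 fold change 2.55, adjusted p = 0.0327). At Recovery weeks 7, 9 and 13 none of the 7 genes was called against control by limma, where 0.0470%, 0.0549% and 0.0784% of all genes tested were called, respectively. At an unadjusted p under 0.05 none was called at week 7, where 3.61% of all genes tested were. Fmod was higher at week 9 and Dcn at week 13 by that measure, as were 1.98% and 4.18% of all genes tested.

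Markers of activated fibroblasts were higher in the HF groups, as Fmod was. The 8 markers of activated fibroblasts summed to 60.4 to 77.5 FPKM in Control week 19, 206 and 219.7 at HF week 3, and 152 to 193 at HF week 5. In recovery they were highest at week 11 (111 to 122), and 53.3 to 95.2 at the other times. Within groups the order of the libraries was that of Fmod in Recovery weeks 7, 9 and 13, and Recovery week 19 library 5 was the highest in both, but not in the other treated groups. Recovery week 11 library 1 had the lowest Fmod of its week (0.0679 FPKM) and the highest sum (122), HF week 3 library 2 had the higher Fmod and the lower sum, and HF week 5 library 1 had the highest Fmod but not the highest sum (179 against 193 in library 2). At HF week 5, 5 of the 7 of these markers tested were higher than in control, with and without library 1, among them Comp (log2 fold change 3.25), Cilp (2.68), Thbs4 (2.13) and periostin, Postn (1.81). Of the 10 genes on the list of fibroblast markers, 4 were higher, Vim (0.92), Gsn (0.87), Pdgfra (0.54) and Col15a1 (0.30), and 0 without library 1. Of all genes tested 11.6% were called higher, and 4.21% without library 1.

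Markers of tissues beside the ventricular wall were higher in HF libraries too. All 5 atrial markers tested were higher in HF week 5 than in control, as were 3 of 4 epicardial and mesothelial markers (Upk3b, Msln and Upk1b), 4 of 4 adipocyte markers and 3 of 4 markers of valve, tendon and cartilage, of which Comp is also on the list of activated fibroblasts. In this comparison 11.6% of all genes tested were called higher and 12.4% lower. HF week 5 library 1 had the highest sum of its group for each of these lists. Without it the share of all genes called higher fell to 4.21%. The atrial sums of HF week 3 were 7765 and 14,104 FPKM, with Nppa and Bmp10 listed at 0 in both libraries. Epicardial and mesothelial markers summed to 72.4, 26.3 and 10.5 FPKM in HF week 5 and 47.9 and 188 in HF week 3, against 1.87 to 3.30 in control. Adipocyte markers summed to 261, 241 and 1.98 in HF week 5 and 246 and 112 in HF week 3, against 0.146 to 0.367. The valve, tendon and cartilage markers summed to 195, 68.7 and 63.0 in HF week 5 and 115 and 99.98 in HF week 3, against 19.4 to 26.0, with Tnmd and Col11a1 listed at 0 in every control library. In the same comparison 4 of 7 endothelial and 4 of 8 mural cell markers were higher, and of 10 cardiomyocyte markers 1 (Pln) was lower. Of macrophage and blood cell markers 0 of 7 and 0 of 3 were called. At an unadjusted p under 0.05 from limma 2 and 1 of them were, where 36.5% of all genes tested were in either direction. Within recovery, the libraries with Fmod above 1 FPKM had atrial sums of 2437 (week 9), 1203 and 1436 (week 11) and 753 (week 19), above every other library of the same week. Their epicardial sums were 1.01 to 2.11, within the control range or under it. The part of these tissues in the levels of the SLRP genes was not tested.

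**Figure D4:**
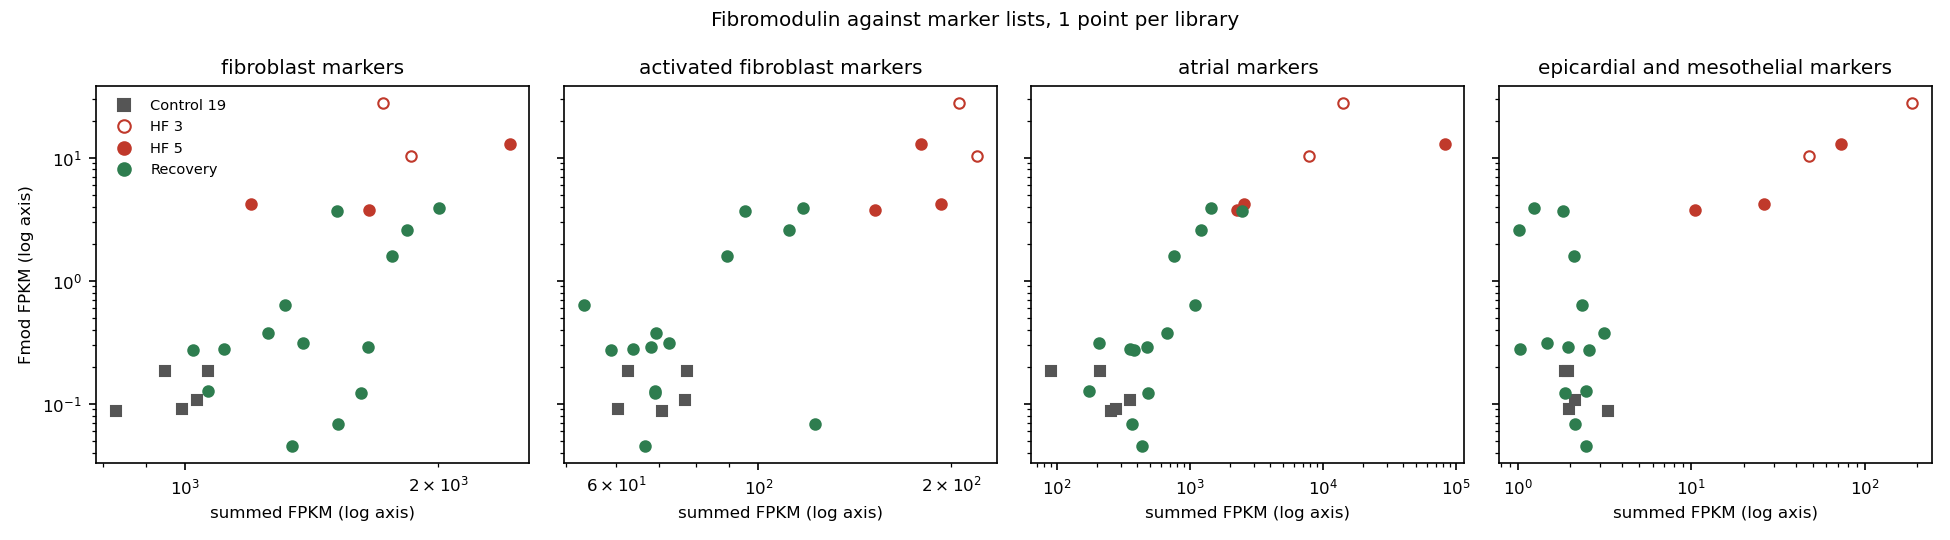
Fmod FPKM against the summed FPKM of 4 marker lists, 1 point per library on logarithmic axes, with control libraries as squares, HF week 3 as open circles and HF week 5 and recovery as filled circles. The HF libraries have the highest sums of activated fibroblast markers and of epicardial and mesothelial markers, and 4 recovery libraries with Fmod above 1 FPKM lie among the control and recovery libraries on the epicardial and mesothelial axis.

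Among the 7 genes, levels over the 24 libraries followed each other to different degrees. Pearson's r of log2(FPKM + 0.5) was 0.92 between Bgn and Fmod, 0.91 between Bgn and Lum and 0.83 between Lum and Fmod. Ogn had an r of 0.070 with Fmod, 0.24 with Bgn and 0.26 with Lum. The genomic neighbours Fmod and Prelp had an r of 0.22, and the neighbours Dcn and Lum an r of 0.74. These are descriptions over libraries that share groups and weeks.

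**Figure D5:**
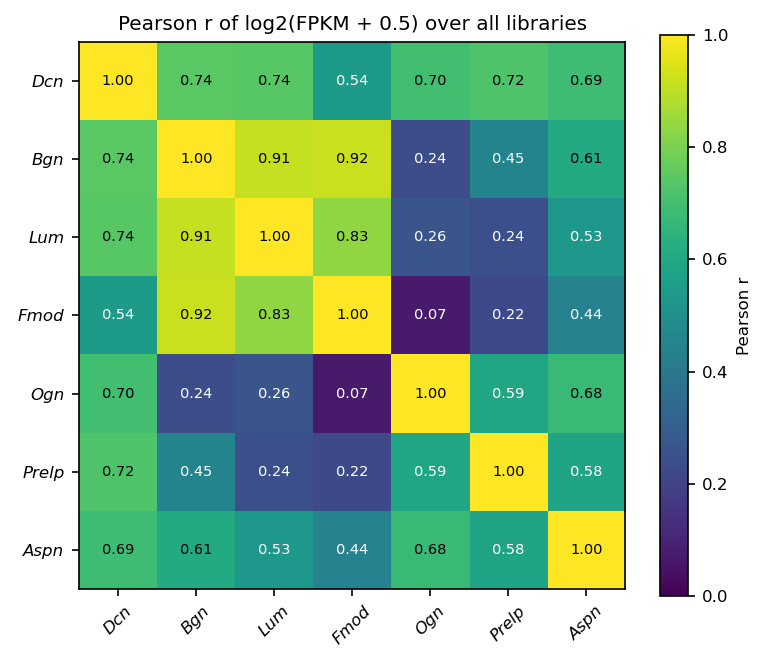
Pearson's r of log2(FPKM + 0.5) between the 7 SLRP genes over 24 libraries, with each value printed in its cell. Bgn, Lum and Fmod form a block with r of 0.83 to 0.92, and Fmod with Ogn has the lowest r, 0.070.

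The genes whose levels were most like those of each member over the 24 libraries differed between the members. For Bgn they were Mgp, the matrix Gla protein that inhibits calcification (r = 0.97), Dap (0.97) and Mfap4, a microfibril protein (0.96). For Fmod they were 1500015O10Rik (0.96), Postn (0.95) and Ltbp2, which binds fibrillin (0.95), and for Lum Eef1a1 (0.96), Vim (0.95) and Tram1 (0.95). Mgp was at 375 ± 61.6 FPKM (SD, n = 5) in control and 1768 ± 984 (n = 3) in HF week 5, and Postn at 5.34 ± 1.82 and 21.3 ± 11.8. For Dcn they were C1ra (0.91) and Serping1 (0.90), a complement protease and the inhibitor of its complex, and Dse, an epimerase that turns chondroitin into dermatan sulfate (0.88). For Ogn they were Angptl1 (0.82), its cluster neighbour Ecm2 (0.81) and Ltb (0.80). For Prelp they were Arhgdib (0.85), Cxx1c (0.85) and Fermt3 (0.84), and for Aspn AK198984 (0.87) and Rbm43 (0.86).

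Of 10 further SLRP genes, 4 passed the filter. Ecm2, which lies beside Aspn, rose in HF week 5, at 8.12 ± 1.25 FPKM (SD, n = 3) against 3.64 ± 0.574 (n = 5) in control (log2 fold change 1.06, adjusted p = 0.0124), and so did Omd, which binds hydroxyapatite in bone, at 1.00 ± 0.408 against 0.303 ± 0.206 (0.90, adjusted p = 0.0375). Omd passed the filter on low values only through groups in which it was higher. Without HF week 5 library 1 neither was called, Ecm2 with the same log2 fold change (1.06, adjusted p = 0.0512) and Omd with 0.74 (0.184). Podn was at 26.5, 3.27 and 3.26 FPKM in HF week 5, library 1 being the high one, against 2.32 to 3.53 in control (0.97, adjusted p = 0.104), and Tsku was at 1.99 to 2.49 against 1.14 to 1.82 (0.51, adjusted p = 0.0591). At HF week 3 Podn (1.71) and Tsku (0.97) were higher. The remaining 6, Kera, Epyc, Optc, Chad, Nyx and Podnl1, had group means of at most 0.458 FPKM. The highest of these was that of Chad in HF week 5, and Kera, next to Lum, was listed at 0 in every library of 6 of the 8 groups.

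Genes of the SLRPs' surroundings were taken from lists. Of 13 collagens and matrix partners tested, 7 were higher in HF week 5 than in control and none was lower (median log2 fold change 0.65). Of all genes tested 11.6% were called higher there and 12.4% lower. The largest rises were in Col14a1, a fibril-associated collagen (1.33), fibronectin, Fn1 (1.17), Col5a2 (0.84), fibrillin 1, Fbn1 (0.75), and Col1a2 (0.68), and 3 of the 13 were called without library 1 (all genes 4.21%). At HF week 3, 11 of 13 were higher, where 23.1% of all genes tested were, and elastin, Eln, was at 317 ± 318 FPKM (n = 2) against 13.8 ± 3.16 (n = 5). At Recovery weeks 7 and 19, 6 and 5 of the 13 were lower than in HF week 5, where 6.75% and 12.0% of all genes tested were. Among them were Fbn1 (-1.35 and -0.71) and Fn1 (-1.05 and -0.95). None was called between Recovery week 19 and Control week 19 by limma, with 3 of 13 at an unadjusted p under 0.05, where 2.88% of all genes tested were.

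Of 20 enzymes tested that build the glycosaminoglycan chains, 0 were called higher by limma at HF week 5 and 2 lower, where 11.6% and 12.4% of all genes tested were. The 2 were the xylose kinase Fam20b (7.43 ± 1.44 against 13.2 ± 1.79 FPKM, log2 fold change -0.79, adjusted p = 0.000185) and the linkage enzyme B3gat3 (-0.31, adjusted p = 0.0454). At an unadjusted p under 0.05 in either direction 8 of 20 were found, where 36.5% of all genes tested were. The median log2 fold change was 0.27 over the 20. Without library 1, 1 was lower, where 6.42% of all genes tested were. Fam20b rose again at Recovery week 7 (0.96) and Recovery week 19 (0.79) relative to HF week 5. At HF week 3, 7 of the 20 were higher and 3 lower, where 23.1% and 27.6% of all genes tested were.

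Of 13 growth factors and receptors that SLRPs are known to bind, 5 were higher in HF week 5, Igf1 (1.17), Tgfb2 (0.79), Bmp2 (0.77), Tgfb3 (0.64) and the receptor Lrp1 (0.60), and Pdgfa was lower (-0.63), the median being 0.48. In this comparison 11.6% of all genes tested were called higher and 12.4% lower. Without library 1, 1 of the 13 was called, where 4.21% of all genes tested were called higher and 6.42% lower. Of 9 proteases and their helpers tested, 3 were higher, Mmp3, a stromelysin that cleaves decorin (1.31), the aggrecanase Adamts5 (0.63) and Pcolce, the enhancer of procollagen cleavage (0.60), with a median of 0.39 over the 9, and 0 without library 1. The shares of all genes tested called higher were 11.6% and, without library 1, 4.21%. At Recovery week 7, Mmp3 (-2.27), Mmp14 (-0.98) and Pcolce (-0.87) were lower than in HF week 5, as were 6.75% of all genes tested.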

How the data were processed

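Poly(A) RNA of mouse hearts was sequenced from both ends. Per the methods and the submitters' processing notes, reads were aligned with TopHat2 to the mouse genome MGSCv37 (mm9) and Cuffdiff gave the expression values. What the authors deposited is FPKM, in a column for each library. The gene annotation and the scaling between libraries are not given in the sources used here, and errors made in those steps stay in the numbers.

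The week in a column's name set its group. Of the columns of single samples, 5 were not used, those with the name of the week 5 controls. For Recovery week 9, 3 samples are labelled and 2 columns were found. Expression as log2(FPKM + 0.5), for genes averaging 0.5 FPKM or more, was modelled by limma 3.58.1 (R 4.3.3) as 8 group means over 24 libraries (16 residual degrees of freedom) and eBayes with a trend. Tests were two-sided, with Benjamini-Hochberg adjustment over all genes tested, and were checked on simulated data. FPKM are not counts, so no count test was run. Relative depth and the fragments of Fmod came from the steps between low values, and errors are the spread over libraries. The ratio of Bgn to Dcn was tested by exact permutation with scipy 1.17.1 in Python 3.11.15, a measure chosen after seeing the data. Motifs were searched in RefSeq promoters of GRCm38.p6.

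The genes named are the 7 SLRP genes, for each of them the 3 genes with the highest Pearson's r (of those for Aspn, 1 is not reported here), further SLRP genes, and from each list up to 5 genes with the largest change among those called in HF week 5 against Control week 19. Further genes were singled out with their values in view. The members and lists were chosen with earlier results of these data known.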

Additional observations from a re-analysis of the deposited data

Results flagged for a closer look

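In groups of 4 or 5 libraries, 1 library can lie far from the others, and by chance about 1 in 20 groups meets the criterion used (Dixon's test at the 95% level). Lum was at 34.6 FPKM in Control week 19 library 5 and at 18.4 to 20.5 in the other control libraries. Aspn was at 11.6 FPKM in the same library and at 4.48 to 5.83 in the others. Fmod was at 1.58 FPKM in Recovery week 19 library 5 and at 0.122 to 0.31 in the other libraries of that group.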

How the results depend on the processing

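Over 1260 values of single genes under alternative settings, 1182 kept direction and call, 28 lost and 22 gained a call, and 28 turned direction; of 92 counts, 82 stayed within 1.5 times. Without the filter on low values 1 gene, and with only the compared groups in the fit 0 genes, were called in Recovery week 7 against HF week 5. At an unadjusted p under 0.05, 1 gene was called in Recovery week 19 against control. Leaving out each library, calls ranged from 1 to 4 for HF week 5 and from 3 to 5 for HF week 3 against control, from 0 to 4 and from 1 to 4 for Recovery weeks 7 and 19 against HF week 5, and stayed at 0 for Recovery week 19 against control. Quantile normalization turned Prelp in Recovery week 19 against HF week 5 (-0.032), Bgn in Recovery week 7 (0.013) and Fmod in Recovery week 13 (-0.018) against control. Leaving out 1 library turned the sign of log2 fold changes that were not called, which then ranged as follows: against Control week 19, Prelp -0.68 to 0.63 and Aspn -1.09 to 1.38 in HF week 3, Lum -0.29 to 0.12, Aspn -0.40 to 0.040, Dcn -0.025 to 0.41 and Ogn -0.094 to 0.39 in Recovery week 7, Aspn -0.062 to 0.26 and Fmod -0.21 to 0.32 in Recovery week 13, Lum -0.060 to 0.22 and Aspn -0.23 to 0.093 in Recovery week 19. Against HF week 5, Ogn ranged from -0.53 to 0.026 in Recovery week 7 and from -0.53 to 0.026 in Recovery week 19, and Prelp from -0.14 to 0.081 in Recovery week 19. In HF week 5 against HF week 3, Prelp ranged from -0.25 to 1.06, Aspn from -0.77 to 1.70 and Bgn from -1.11 to 0.16. The causes were not tested. Fits without both HF week 3 libraries or without genes listed at 0 in a group were added after seeing the data. The paper describes separate mice sacrificed at each time point. Libraries of different groups thus came from different mice, and no paired analysis applied. Groups of 2 libraries and unknown absolute depth limit the precision.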
